A study of Homo sapiens with 54 samples.

Results

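The genes described here are 50 core components of the spliceosome and of the exon junction complex, out of 55906 gene names listed in each of 4 expression tables. They were chosen by function, but with earlier results of these data known. The list holds 3 proteins of the U1 snRNP, 10 of the U2 snRNP including the SF3A and SF3B complexes, 7 Sm proteins and 3 factors that recognise the 3′ splice site. It also holds 4 proteins of the U5 snRNP, 8 of the U4/U6.U5 tri-snRNP, 7 of the Prp19 complex (NTC) and its associated factors, 5 late-acting helicases and second-step factors, and 3 exon junction proteins. The study asked whether the paralogous splicing factors TRA2A and TRA2B stand in for each other, which cancer cells depend on TRA2A, and whether more TRA2B relieves that dependency. It measured polyadenylated RNA in 54 directional libraries, 3 for each of 18 groups. In A549 and NCI-H23, both lung adenocarcinoma cell lines, cells carrying the CRISPR interference repressor Zim3-dCas9 received guides for a control (Control KD), for TRA2A (TRA2A KD), for TRA2B (TRA2B KD) or for both (TRA2A/B DKD) and were collected 5 days after transduction. In LN229 and LN319, both glioma lines, cells with active Cas9 overexpressed luciferase (Luc) or TRA2B (TRA2B-OE) and were collected 7 days after guide transduction. Their 5 groups per line were Luc cells with a control, a TRA2A or a TRA2B knockout (KO) and TRA2B-OE cells with a control or a TRA2A knockout. The labels do not say whether the 3 libraries of a group came from separate cultures, so every p-value below measures only the spread between these libraries.

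The spliceosome removes introns in ordered steps. The U1 snRNP pairs with the 5′ splice site, the U2AF proteins mark the 3′ splice site, and the U2 snRNP binds the branch point. The tri-snRNP of U4, U6 and U5 then joins, helicases and the NTC remodel the complex into its active form, and second-step factors such as SLU7 help to choose the 3′ splice site for exon ligation. Sm proteins form the ring around the snRNAs of U1, U2, U4 and U5. The exon junction complex of EIF4A3, RBM8A and MAGOH is left upstream of ligated exons and takes part in later mRNA quality control. TRA2A and TRA2B are SR-like proteins that bind purine-rich exonic sequences and favour the use of weak exons. None of the 50 genes encodes an SR protein, so the comparisons follow the abundance of the general machinery when these exon-specific regulators are lost.

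Values are TPM, the share of the transcripts of a library that a gene holds after division by transcript length, so levels of different genes can be set side by side. Fold changes are on the scale of log2(TPM + 0.1) after a scaling between libraries, and a gene was called when the Benjamini-Hochberg adjusted p over all genes tested in that line was under 0.05 in limma. All 50 genes passed the expression filter in every line. Statements that groups overlapped or lay apart refer to the TPM as printed, before the scaling, unless the scaling is named. TPM hold no read counts, so no counting interval can be given. TRA2A fell to 9.56% of control in A549 TRA2A KD and 6.54% in NCI-H23 TRA2A KD, and TRA2B to 9.68% and 10.6% in the TRA2B KD. In the DKD TRA2A and TRA2B were at 13.9% and 16.3% of control in A549 and at 20.5% and 25.2% in NCI-H23. In the knockouts TRA2A was at 62.9% of control in LN229 and 33.2% in LN319 and TRA2B at 66.0% and 35.1%, and an edited transcript may still be counted. After TRA2B loss TRA2A was called lower in LN319, at 84.6% of control (adjusted p = 0.0040). It was at 130% in A549, where it was not called, and called higher at 149% in NCI-H23 and 155% in LN229. In TRA2B-OE cells with a control knockout TRA2B was at 374% of Luc controls in LN229 and 873% in LN319. In TRA2B-OE cells with TRA2A KO, TRA2A was at 87.2% of its control in LN229, a difference that was not called (adjusted p = 0.079), and at 52.8% in LN319. Epithelial KRT8 was between 445 and 3116 TPM in the lung lines, SOX2 between 316 and 490 TPM in LN319 and NES between 213 and 286 TPM in LN229, but several defining markers were at or near 0. NKX2-1 did not exceed 0.356 TPM in A549, CDH1 did not exceed 2.47 TPM in NCI-H23, OLIG2 did not exceed 0.140 TPM in LN319 and GFAP did not exceed 5.17 TPM in either glioma line. In LN319 epithelial CDH1 reached 150.1 TPM and NKX2-1 was between 5.68 and 20.2 TPM, while NES was between 6.12 and 14.7 TPM. One library stood apart: A549 Control KD replicate 3 had a median correlation of 0.837 with the other A549 libraries. In these bulk libraries fewer cells of a kind and less RNA per cell cannot be told apart.

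In control cells the machinery was expressed at unequal levels. The median TPM of a member over the 3 control libraries ran from 11.4 for U2AF1 to 554 for SNRPD2 in A549, with a median of 76.3 over the 50 genes. In NCI-H23 it ran from 7.97 for ZRSR2 to 478 for SNRPD2. LN229 spanned 16.3 for CDC5L to 846 for SNRPB2, and LN319 spanned 13.3 for AQR to 428 for SNRNP70. Thus an Sm protein, SNRPD2, was the most abundant member in both lung lines, while SNRPB2, a U2-specific RNA-binding protein, led in LN229 only. The low rank of U2AF1 in A549 holds for its own entry alone. With its copy U2AF1L5, described below, the mean sum was 126.5 TPM in A549 controls. SNRPD2 was at 554, 652 and 420.2 TPM in A549 controls and at 389, 532 and 478 TPM in NCI-H23 controls. CDC5L, an NTC subunit, was at 13.8, 16.3 and 17.1 TPM in the LN229 Luc controls, and AQR, a helicase of the intron-binding complex, at 14.5, 12.2 and 13.3 TPM in those of LN319. SNRNP70, the U1 protein that binds U1 snRNA, was at 436, 428 and 401 TPM there. SNRPB2 at 1012, 846 and 809 TPM in LN229 was 8.45 times the next highest line by control median, which ranged from 60.0 to 100.07 TPM in the other 3 lines. Together the 50 genes held 0.459% to 0.787% of all TPM in a library.

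Loss of a single paralog in the lung lines left nearly all of the machinery uncalled. In A549, 0 of 50 members were called after TRA2A KD, where 0.207% of all genes tested were, and 0 of 50 after TRA2B KD, where 0.341% were. At an unadjusted p under 0.05 in limma the counts were 4 higher and 1 lower after TRA2A KD and 4 higher and 8 lower after TRA2B KD. Unadjusted counts, here and below, are given without the share of all genes at that threshold and so show no excess. In NCI-H23 a single member was called after TRA2A KD, where 0.976% of genes were, and 0 after TRA2B KD, where 0.196% were. Unadjusted, 3 members were higher and 2 lower after TRA2A KD and 4 higher and 1 lower after TRA2B KD. The called gene was USP39, a protein needed to bring in the tri-snRNP. USP39 was at 73.8, 81.8 and 85.5 TPM in NCI-H23 controls and 66.8, 63.8 and 62.7 TPM after TRA2A KD, a log2 fold change of −0.30 (SE 0.06, adjusted p = 0.033). All 3 knockdown libraries lay below the 3 controls. The call was lost when any 1 of the 6 libraries was left out, with adjusted p up to 0.11.

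Loss of both paralogs changed a large share of the machinery in both lung lines. In A549 TRA2A/B DKD, 6 members rose and 17 fell, against 14.3% of all genes tested called higher and 16.3% called lower. In NCI-H23, 6 rose and 24 fell, against 20% and 23.2% of all genes. In both lines the share of members that rose was thus below that of all genes, and the share that fell was above it. The median log2 fold change over the 50 members was −0.29 in A549 and −0.23 in NCI-H23, beside 0.03 and 0.02 over all genes. Between the lines, 5 members were called higher in both, 12 fell in both and 0 moved in opposite directions. The shares of all genes called in the same or in opposite directions in both lines were not counted, so these joint counts have no background. Counts under other settings, here and below, are given without the share of all genes called under that setting and so show no excess. With A549 Control KD replicate 3 left out, the A549 counts were 5 higher and 28 lower, and with A549 TRA2A/B DKD replicate 1 left out the total called was 15. A fit of the compared groups alone called 4 higher and 7 lower in A549. On TPM as deposited, without the scaling between libraries, the NCI-H23 split was 9 higher and 14 lower, and the median of all genes stood at 0.17 on the log2 scale. In A549 it was 7 higher and 14 lower, with that median at 0.11.

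**Figure D1:**
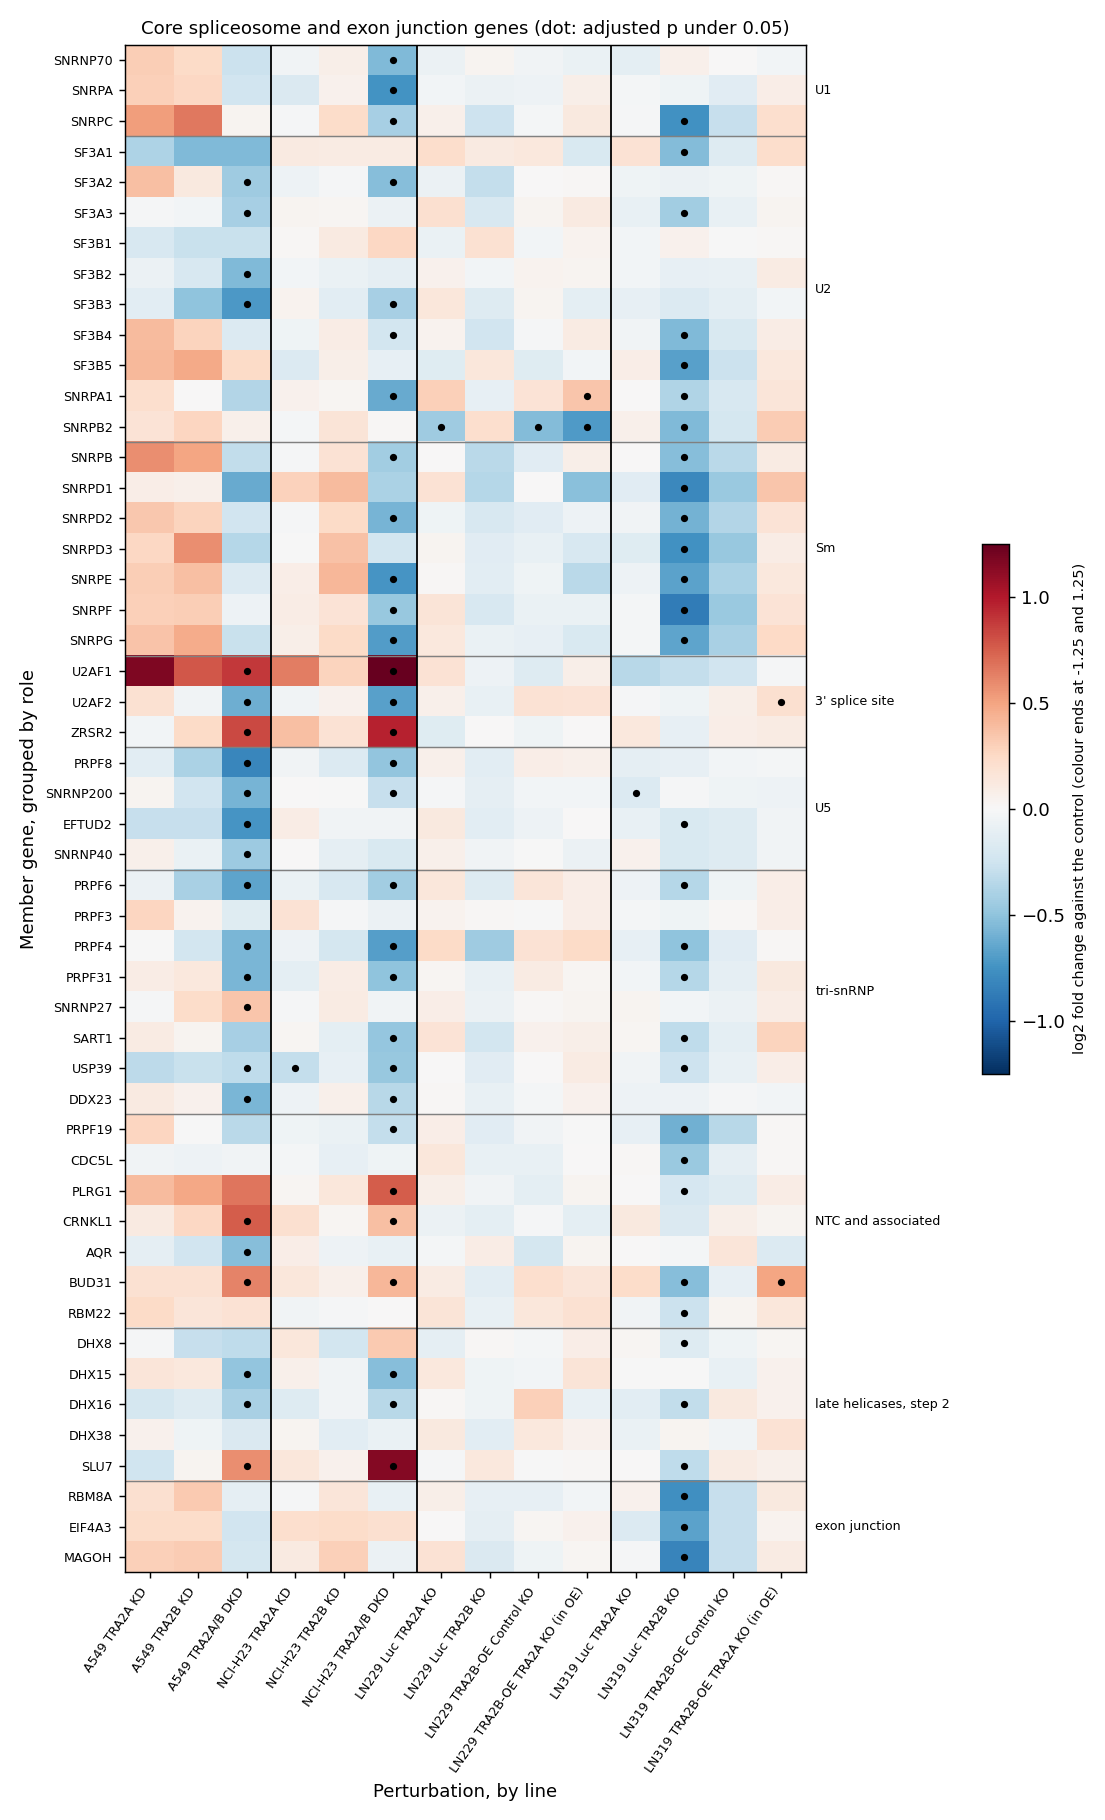
Log2 fold change (colour) of each of the 50 genes (rows, grouped by role) in each perturbation against its own control (columns), with dots on the genes called at an adjusted p under 0.05. The double knockdowns of A549 and NCI-H23 and the TRA2B KO of LN319 carry most of the dots, with 23, 30 and 31 genes called.

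The members whose own values were called higher in both double knockdowns were U2AF1, ZRSR2, CRNKL1, BUD31 and SLU7, which act at the 3′ splice site, in the NTC or at the second step. U2AF1, the small U2AF subunit that reads the AG at the end of the intron, was at 19.3, 11.4 and 11.1 TPM in A549 controls and 28.9, 21.4 and 29.4 TPM after DKD, a log2 fold change of 0.88 (SE 0.27, adjusted p = 0.029). In NCI-H23 it went from 17.0, 21.5 and 18.8 TPM to 48.5, 51.8 and 50.5 TPM, a log2 fold change of 1.24 (SE 0.15, adjusted p = 7.9e-05). The groups did not overlap in either line in TPM, but after the scaling those of A549 did. The A549 call was lost when Control KD replicate 2 or 3 or TRA2A/B DKD replicate 1 or 3 was left out (adjusted p = 0.074, 0.063, 0.085 and 0.088). Its level was also above every control library in the A549 TRA2A KD at 21.5, 29.7 and 32.4 TPM and in the NCI-H23 TRA2A KD at 37.4, 27.0 and 25.2 TPM, without being called (adjusted p = 0.17 and 0.085).

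Most of the U2AF1 sequence is present a second time in the annotation, as U2AF1L5, and no rise was called in either line once both were summed. In RefSeq annotation of GRCh38.p14 the U2AF1 gene lies at chr21:43092956-43107578 and the copy at chr21:6484623-6499248, and 96% of the 14581 distinct 31-base words of the U2AF1 gene span also occur in the copy. In A549 controls U2AF1 had 13.9 ± 4.70 TPM and U2AF1L5 112.6 ± 16.0 TPM (SD, n = 3), and after DKD they had 26.6 ± 4.48 and 83.6 ± 12.8 TPM. Their sum was 126.5 ± 15.8 TPM in controls and 110.2 ± 14.4 TPM after DKD. With the copies summed, the log2 fold change in A549 was −0.28 (adjusted p = 0.19), opposite in sign to that of U2AF1 alone. In NCI-H23 the sum was 167.1 ± 16.1 TPM in controls and 198.05 ± 8.59 TPM after DKD, a log2 fold change of 0.09 (adjusted p = 0.33). The direction for U2AF1 is therefore uncertain, and with the sum in its place 5 members rose in each line.

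**Figure D2:**
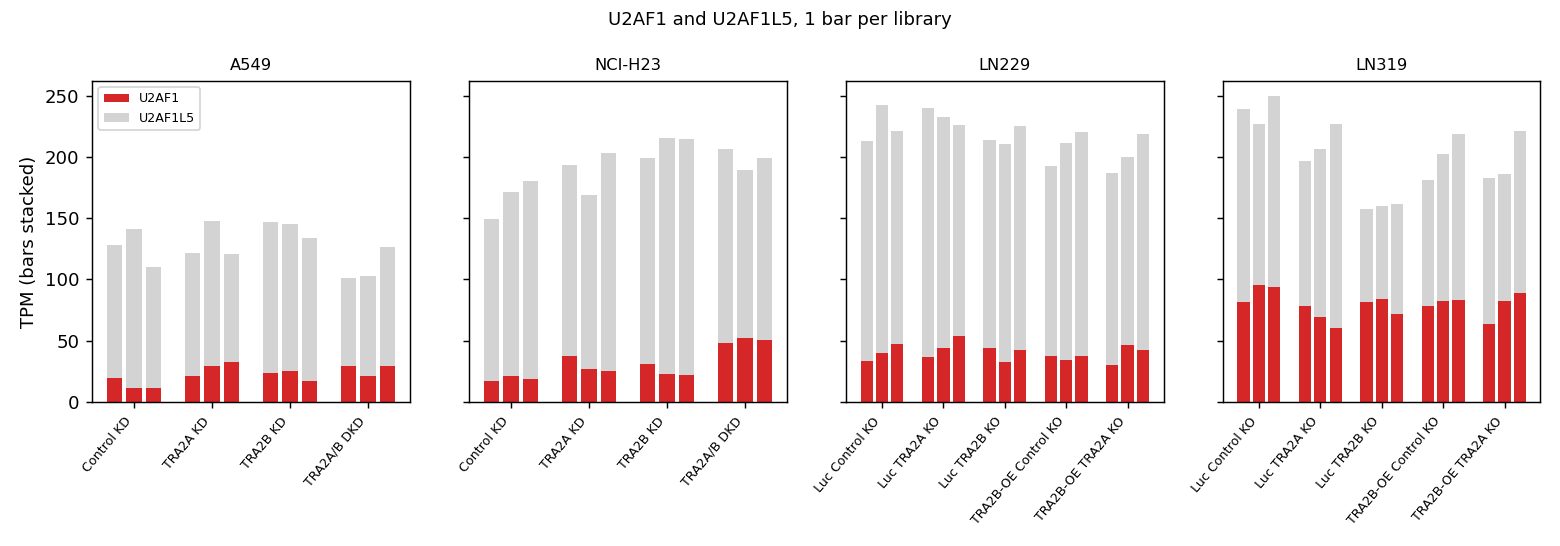
TPM of U2AF1 (red, at the base) with that of its near-identical copy U2AF1L5 (grey) stacked on top, 1 bar for each library, by group in the 4 lines. The U2AF1 segment is taller after the double knockdowns, whereas the mean of the stacked sum was 126.5 TPM in A549 controls and 110.2 TPM after DKD.

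ZRSR2, a U2AF1-related protein that recognises the 3′ splice site of minor, U12-type introns, was the least abundant member in NCI-H23 controls. It was at 10.6, 13.0 and 11.5 TPM in A549 controls and 21.7, 20.8 and 23.6 TPM after DKD, a log2 fold change of 0.83 (SE 0.17, adjusted p = 0.0039). In NCI-H23 it was at 5.43, 8.68 and 7.97 TPM and 15.3, 16.3 and 15.9 TPM, a log2 fold change of 0.97 (SE 0.15, adjusted p = 0.00051). All DKD libraries lay above all controls in both lines, while in the single knockdowns ZRSR2 overlapped the controls. Its retrocopy ZRSR1 holds 7.29% of the 31-base words of the ZRSR2 transcripts and was itself called higher in both DKDs (log2 fold changes 4.44 and 3.14, adjusted p = 0.020 and 0.031), so part of the reads could be shared.

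CRNKL1, a scaffold protein of the NTC, was at 19.2, 17.2 and 19.5 TPM in A549 controls and 34.1, 34.8 and 30.8 TPM after DKD, a log2 fold change of 0.75 (SE 0.14, adjusted p = 0.0024). NCI-H23 went from 18.2, 22.5 and 24.1 TPM to 32.5, 28.7 and 32.4 TPM, a log2 fold change of 0.38 (SE 0.11, adjusted p = 0.02). The groups were apart in both lines, and the smaller NCI-H23 change lost its call without Control KD replicate 1 or TRA2A/B DKD replicate 1 (adjusted p = 0.072 and 0.056). BUD31, an NTC-associated protein, was more abundant, at 108, 107 and 93.9 TPM in A549 controls and 158, 171 and 171 TPM after DKD, a log2 fold change of 0.62 (SE 0.13, adjusted p = 0.0051). The NCI-H23 libraries gave 92.7, 114 and 89.6 TPM and then 145, 145 and 146 TPM, a log2 fold change of 0.41 (SE 0.07, adjusted p = 0.0011). BUD31 was thus raised without overlap in both lines, and both calls held with each library left out.

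SLU7, the second-step factor that helps to select the 3′ splice site, rose in both lines. In NCI-H23 its TPM was 39.6, 38.3 and 44.4 in controls and 103, 90.6 and 109 after DKD, a log2 fold change of 1.15 (SE 0.08, adjusted p = 2.2e-06). A549 gave 32.0, 38.7 and 50.7 TPM in controls and 69.1, 59.8 and 59.7 TPM after DKD, a log2 fold change of 0.58 (SE 0.19, adjusted p = 0.04). The DKD libraries were above the controls in both lines, but the A549 call was lost on leaving out any of 5 libraries and held only without Control KD replicate 3, with adjusted p of 0.12 without Control KD replicate 1, 0.068 without replicate 2, and 0.12, 0.08 and 0.069 without TRA2A/B DKD replicates 1, 2 and 3.

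**Figure D3:**
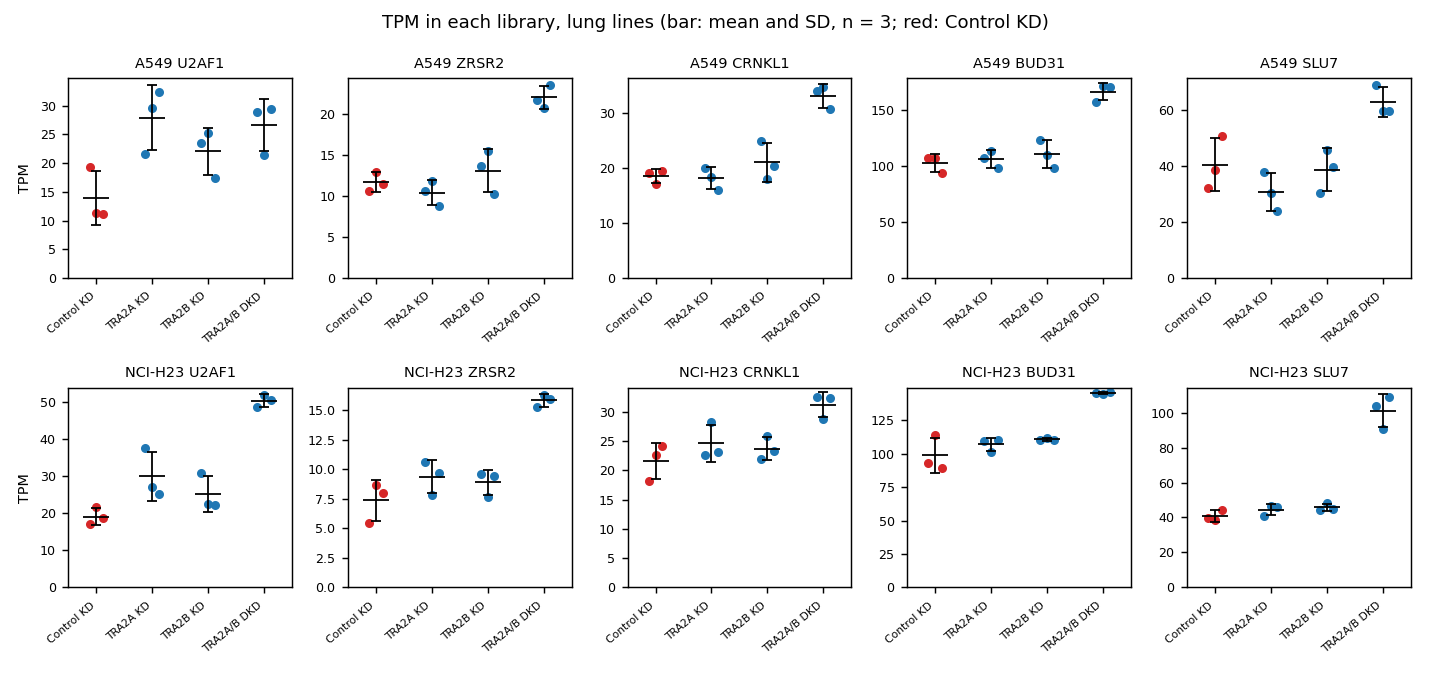
TPM of the 5 genes called higher by their own values in both double knockdowns, by library (points; controls in red) and group mean with SD, in A549 and NCI-H23. In both lines every DKD point lies above every control point of the same gene.

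The promoter stretches of CRNKL1 and SLU7 are shown because both rose in both lines, with those of U2AF1, whose direction is uncertain, and of SNRPG, a Sm gene that fell in NCI-H23, for comparison. Each is the 150 bases before the RefSeq start site in GRCh38.p14, read 5′ to 3′ on the minus strand that carries the gene, with no annotated exon inside. Capitals mark the letters GGGCGG (GC box) or CCGGAAG (ETS site), searched on both strands, and no match overlaps another in these stretches. The stretches are at chr21:43107571-43107720 (U2AF1), chr20:20056047-20056196 (CRNKL1), chr5:160419082-160419231 (SLU7) and chr2:70293459-70293608 (SNRPG).
U2AF1: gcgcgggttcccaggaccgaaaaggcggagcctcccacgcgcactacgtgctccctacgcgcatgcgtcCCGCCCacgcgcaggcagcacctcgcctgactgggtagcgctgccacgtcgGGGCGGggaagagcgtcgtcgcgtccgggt
CRNKL1: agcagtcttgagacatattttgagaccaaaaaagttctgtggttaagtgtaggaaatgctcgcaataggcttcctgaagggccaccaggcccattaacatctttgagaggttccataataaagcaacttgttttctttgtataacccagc
SLU7: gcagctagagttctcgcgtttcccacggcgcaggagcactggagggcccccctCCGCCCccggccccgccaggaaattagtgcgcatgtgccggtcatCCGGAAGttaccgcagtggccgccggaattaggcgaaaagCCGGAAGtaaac
SNRPG: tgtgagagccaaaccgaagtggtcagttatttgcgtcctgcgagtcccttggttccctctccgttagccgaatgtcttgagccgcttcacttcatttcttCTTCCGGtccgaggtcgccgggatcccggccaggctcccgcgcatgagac
CRNKL1 and SLU7 shared no mark: SLU7 has a GC box at −97 and ETS letters at −52 and −12, and CRNKL1 has no match. U2AF1 has GC boxes at −81 and −30. GC content was 72.7% for U2AF1, 41.3% for CRNKL1, 64.7% for SLU7 and 58.7% for SNRPG, whose ETS letters lie at −50. Among RefSeq windows of 300 bases around the start site, the ETS letters were found in 27 of the 47 members with 1 window (57.4%), in 20.9% of genes that passed the filter in all 4 lines and in 10.7% of all 27305 promoters. The GC box was present in 68.1% of members and 72% of expressed genes. CCAAT was in 38.3% and 37.2%, CACGTG in 6.38% and 10.6%, and TATAAA in 2.13% and 4.82%. These matches are letters in a window and were not tested as binding sites.

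The 12 members that fell in both double knockdowns came from the U2 snRNP, the large U2AF subunit, the U5 core, the tri-snRNP and the helicases. SF3B3 and SF3A2 belong to the complexes that hold the U2 snRNP at the branch point. SF3B3 was at 172, 157 and 256 TPM in A549 controls and 127, 127 and 113 TPM after DKD, a log2 fold change of −0.72 (SE 0.12, adjusted p = 0.0011). In NCI-H23 it was at 160.4, 153 and 144 TPM and 122, 122 and 138 TPM, a log2 fold change of −0.41 (SE 0.07, adjusted p = 0.00081). All DKD libraries were below all controls, and A549 Control KD replicate 3 was the highest library. SF3A2 was lower by less in A549, at 75.8, 85.1 and 64.5 TPM against 58.2, 53.3 and 62.4 TPM, a log2 fold change of −0.45 (SE 0.14, adjusted p = 0.037). NCI-H23 had 146, 178 and 163 TPM against 132, 109 and 134 TPM, a log2 fold change of −0.53 (SE 0.08, adjusted p = 0.00042). The A549 call for SF3A2 was lost when any library of either group except Control KD replicate 3 was left out (adjusted p up to 0.12).

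U2AF2, the large U2AF subunit that binds the polypyrimidine tract, fell while its partner U2AF1 was listed higher. U2AF2 was at 348, 359.7 and 269 TPM in A549 controls and 206, 225 and 239 TPM after DKD, a log2 fold change of −0.61 (SE 0.16, adjusted p = 0.016). In NCI-H23 its level was 205, 234 and 229 TPM and 167, 137 and 162 TPM, a log2 fold change of −0.68 (SE 0.07, adjusted p = 3.8e-05). The groups did not overlap in either line, and the A549 call was lost without Control KD replicate 1, Control KD replicate 2 or TRA2A/B DKD replicate 1 (adjusted p = 0.055, 0.051 and 0.063).

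In the U5 snRNP, all 4 proteins fell in A549 and 2 of 4 in NCI-H23. PRPF8, the large protein at the catalytic centre, was at 137, 129 and 266 TPM in A549 controls and 107, 109 and 86.5 TPM after DKD, a log2 fold change of −0.82 (SE 0.18, adjusted p = 0.0066). NCI-H23 had 161, 153 and 147 TPM and 122, 123 and 119 TPM, a log2 fold change of −0.50 (SE 0.09, adjusted p = 0.0013). Without A549 Control KD replicate 3, the library with 266 TPM, the A549 log2 fold change was −0.55 (adjusted p = 0.0048). SNRNP200, the helicase that unwinds U4 from U6, was at 83.3, 88.6 and 114 TPM in A549 controls and 67.8, 68.2 and 64.6 TPM after DKD, a log2 fold change of −0.58 (SE 0.08, adjusted p = 0.00023). It was at 226, 249 and 234 TPM and 214, 209 and 225 TPM in NCI-H23, a smaller log2 fold change of −0.28 (SE 0.04, adjusted p = 0.00030). The DKD libraries were below all controls for both genes in both lines. EFTUD2, the U5 GTPase, was called in A549 alone, at 155, 152 and 314 TPM in controls and 134, 115 and 124 TPM after DKD, a log2 fold change of −0.73 (SE 0.18, adjusted p = 0.012) that was −0.46 (adjusted p = 0.0089) without Control KD replicate 3. In NCI-H23 EFTUD2 was at 192, 180.0 and 176 TPM and 176, 215 and 201 TPM with overlapping groups (adjusted p = 0.8).

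Of the 8 tri-snRNP proteins, 5 fell in both lines. PRPF4, which holds U4 and U6 together with PRPF3, was at 32.6, 31.7 and 35.6 TPM in A549 controls and 23.7, 22.9 and 24.3 TPM after DKD, a log2 fold change of −0.57 (SE 0.10, adjusted p = 0.0014). NCI-H23 gave 41.0, 39.4 and 36.9 TPM and 26.1, 26.6 and 28.4 TPM, a log2 fold change of −0.69 (SE 0.08, adjusted p = 4.1e-05). The PRPF4 groups did not overlap in either line, and both calls held with each library left out. PRPF6, which bridges U5 and U4/U6, was at 58.4, 54.7 and 89.6 TPM in A549 controls and 45.5, 46.3 and 40.5 TPM after DKD, a log2 fold change of −0.66 (SE 0.13, adjusted p = 0.0038). In NCI-H23 it had 129, 116 and 117 TPM and 89.9, 106 and 104 TPM, a log2 fold change of −0.43 (SE 0.11, adjusted p = 0.0073). PRPF6 did not overlap in either line, and its highest A549 control was again replicate 3.

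PRPF31, the U4-binding protein, was at 112, 122 and 88.7 TPM in A549 controls and 72.2, 72.5 and 84.0 TPM after DKD, a log2 fold change of −0.57 (SE 0.16, adjusted p = 0.021). NCI-H23 controls had 70.4, 84.6 and 85.4 TPM and DKD libraries 62.4, 59.9 and 65.7 TPM, a log2 fold change of −0.50 (SE 0.06, adjusted p = 8.1e-05). Its A549 call was lost without Control KD replicate 1 or 2 or TRA2A/B DKD replicate 1 or 2 (adjusted p from 0.066 to 0.074). DDX23, the helicase that releases U1 from the 5′ splice site, was at 90.9, 88.5 and 111 TPM in A549 controls and 66.2, 72.6 and 67.2 TPM after DKD, a log2 fold change of −0.57 (SE 0.07, adjusted p = 0.00021). It was at 113, 123 and 119.6 TPM and 108, 97.2 and 106 TPM in NCI-H23, a log2 fold change of −0.35 (SE 0.06, adjusted p = 0.0012). The groups of both genes were apart in both lines in TPM, but after the scaling those of PRPF31 overlapped in A549. USP39 moved by −0.32 on the log2 scale in A549 and by −0.48 in NCI-H23 (adjusted p = 0.018 and 6.0e-05). Its A549 groups overlapped in TPM but were apart after the scaling. The A549 call was lost without any 1 of the DKD replicates 1, 2 and 3 (adjusted p = 0.068, 0.051 and 0.056). SNRNP27, a tri-snRNP protein, rose instead in A549, from 34.7, 39.7 and 41.6 TPM to 48.4, 48.1 and 59.6 TPM, a log2 fold change of 0.35 (SE 0.10, adjusted p = 0.026), lost without Control KD replicate 1 or TRA2A/B DKD replicate 3 (adjusted p = 0.066 and 0.097). NCI-H23 showed overlapping SNRNP27 groups (adjusted p = 0.68).

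Among the late helicases, DHX15, which dismantles spent spliceosomes, fell in both lines. DHX15 was at 91.5, 99.8 and 91.4 TPM in A549 controls and 75.0, 62.8 and 74.3 TPM after DKD, a log2 fold change of −0.50 (SE 0.12, adjusted p = 0.0092). NCI-H23 gave 99.4, 107 and 111 TPM and 79.8, 77.1 and 87.8 TPM, a log2 fold change of −0.53 (SE 0.04, adjusted p = 5.8e-06). The DKD libraries were below the controls in both lines. DHX16, a helicase of catalytic activation, had log2 fold changes of −0.41 and −0.35 in A549 and NCI-H23 (adjusted p = 0.03 and 0.0044), and its A549 call was lost without Control KD replicate 1 or 3 or any 1 of the DKD libraries (adjusted p from 0.061 to 0.094).

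The calls of the lung lines parted over the U1 and Sm proteins. All 3 U1 proteins and 5 of 7 Sm proteins fell in NCI-H23, whereas 0 of 3 and 0 of 7 were called in A549. A549 Control KD replicate 3, the library that stood apart, had the lowest control TPM for every U1 and Sm gene. SNRPB, for instance, was at 467, 533 and 268 TPM in A549 controls and 311, 349 and 386 TPM after DKD. Without that library the total of members called in A549 DKD was 33, so the uncalled A549 genes depend on it in part. The median log2 fold change of the Sm proteins was −0.48 in NCI-H23 and −0.27 in A549, and the difference between the lines was not tested. SNRPA, the U1 protein that binds a stem-loop of U1 snRNA, was at 95.9, 109.6 and 98.8 TPM in NCI-H23 controls and 69.2, 64.1 and 68.0 TPM after DKD, a log2 fold change of −0.75 (SE 0.07, adjusted p = 1.2e-05). In A549 the SNRPA groups overlapped, at 91.8, 109 and 77.9 TPM and 75.1, 77.1 and 97.2 TPM (adjusted p = 0.37). SNRPE, a Sm ring protein, was at 73.9, 86.9 and 110.1 TPM in NCI-H23 controls and 75.2, 41.0 and 68.9 TPM after DKD, a log2 fold change of −0.73 (SE 0.23, adjusted p = 0.026). The SNRPE groups overlapped in TPM but were apart after the scaling, with DKD replicate 2 the lowest. The call was lost without that library or Control KD replicate 3 (adjusted p = 0.1 and 0.096). SNRPG, another ring protein, was at 290.4, 355 and 369 TPM and 265, 188 and 249.6 TPM without overlap, a log2 fold change of −0.69 (SE 0.14, adjusted p = 0.0024). SNRPA1, a U2-specific protein, was at 100.2, 101 and 101 TPM and 74.5, 67.4 and 76.4 TPM, a log2 fold change of −0.63 (SE 0.06, adjusted p = 8.1e-06), and held with each library left out. A549 SNRPE and SNRPG overlapped between groups (adjusted p = 0.66 and 0.35), and so did SNRPA1 in TPM, though not after the scaling (adjusted p = 0.061).

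NCI-H23 alone also called PLRG1, an NTC subunit, higher. It was at 66.1, 81.1 and 63.8 TPM in NCI-H23 controls and 139, 125 and 132 TPM after DKD, a log2 fold change of 0.76 (SE 0.09, adjusted p = 6.0e-05). The A549 libraries had 58.7, 63.8 and 32.7 TPM in controls and 76.2, 85.0 and 90.3 TPM after DKD, also without overlap, but the fit did not call it (adjusted p = 0.088). Further members called lower in NCI-H23 only were SNRNP70, SNRPC, SF3B4, SNRPB, SNRPD2, SNRPF, SART1 and PRPF19. Those called lower in A549 only were, beside EFTUD2, the U2 proteins SF3A3 and SF3B2, the U5 protein SNRNP40 and the NTC-associated helicase AQR. SF3B2 was at 147, 142 and 208 TPM in A549 controls and 127, 112 and 115 TPM after DKD, a log2 fold change of −0.55 (SE 0.10, adjusted p = 0.0016). AQR was at 22.4, 24.7 and 40.1 TPM and 22.1, 19.5 and 20.0 TPM, a log2 fold change of −0.53 (SE 0.14, adjusted p = 0.013) that lost its call without TRA2A/B DKD replicate 3 (adjusted p = 0.052). SNRNP40 was at 42.3, 41.1 and 54.2 TPM and 35.8, 33.0 and 36.7 TPM, a log2 fold change of −0.45 (SE 0.10, adjusted p = 0.005). The DKD libraries of all 3 lay below the controls in A549, and SF3A3, with −0.41 (SE 0.14, adjusted p = 0.04), lost its call when any library of either group except Control KD replicate 3 was left out (adjusted p up to 0.13). None of the 3 exon junction genes was called in either double knockdown, with a median log2 fold change of −0.22 in A549 and −0.07 in NCI-H23.

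Whether the double knockdown differed from the sum of the single knockdowns was tested as an interaction on the log2 scale. In A549, 0 members were above additivity and 10 below it, against 5.84% and 8.89% of all genes tested. In NCI-H23, 2 members were above and 19 below, against 8.23% and 12.8% of genes. The median interaction over the members was −0.45 in A549 and −0.23 in NCI-H23, beside −0.05 and −0.01 over all genes. In A549 the interaction moved with transcript length over all genes, with medians of −0.33 under 1 kb and 0.16 over 4 kb, and with the trends in length, GC content and gene span removed 2 members were above and 17 below additivity. SLU7 and PLRG1 were the members above additivity in NCI-H23, with interactions of 0.96 (SE 0.12, adjusted p = 0.00035) and 0.60 (SE 0.13, adjusted p = 0.0071). Below it the largest were Sm proteins, with −1.24 (SE 0.33, adjusted p = 0.023) for SNRPE, −1.08 (SE 0.23, adjusted p = 0.0065) for SNRPD1 and −1.01 (SE 0.20, adjusted p = 0.0053) for SNRPG in NCI-H23. SNRPB had the lowest called interaction in A549, −1.38 (SE 0.38, adjusted p = 0.033). The control enters the interaction with a plus sign, so a low control library lowers the value. SNRPB was at 467, 533 and 268 TPM in A549 controls, lowest in replicate 3, the library that stood apart. On TPM as deposited the splits were 4 above and 2 below in A549 and 2 above and 11 below in NCI-H23. Leaving out A549 TRA2B KD replicate 1 took the A549 count from 10 to 3, and leaving out A549 Control KD replicate 2 took it to 19.

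In LN229 the machinery was hardly called after either knockout, and the member that was called repeatedly was SNRPB2. After TRA2A KO, 0 members rose and 1 fell, against 3.68% of all genes tested called, and after TRA2B KO 0 were called against 0.568%. The unadjusted counts at p under 0.05 were 5 higher and 1 lower after TRA2A KO and 1 higher and 10 lower after TRA2B KO. Leaving out Luc Control KO replicate 1 raised the TRA2B KO count from 0 to 11, and the share of all genes called in that fit is not given here. SNRPB2 was at 1012, 846 and 809 TPM in the LN229 Luc controls and 727, 609 and 597 TPM after TRA2A KO, a log2 fold change of −0.45 (SE 0.10, adjusted p = 0.029). After TRA2B KO it was at 1114, 1017 and 1031 TPM, without being called (adjusted p = 0.22). These libraries were above every control in TPM but overlapped the controls after the scaling between libraries. The TRA2A KO libraries were below every control with and without the scaling. The TRA2A KO call was lost without Luc Control KO replicate 1 or 2 or Luc TRA2A KO replicate 2 or 3 (adjusted p = 0.093, 0.05002, 0.088 and 0.14).

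TRA2B overexpression in LN229 came with a lower SNRPB2 as well. In TRA2B-OE cells with a control knockout SNRPB2 was at 671, 609.8 and 602 TPM, a log2 fold change of −0.54 (SE 0.10, adjusted p = 0.026) against Luc controls, and it was the 1 member called there, against 1.03% of all genes. TRA2A KO within TRA2B-OE cells lowered it to 402, 407 and 364 TPM, a log2 fold change of −0.70 (SE 0.10, adjusted p = 0.0021) against TRA2B-OE controls. All 3 of these libraries were below every other LN229 library. The response of SNRPB2 to TRA2A KO was not called different between TRA2B-OE and Luc cells (interaction −0.26 (SE 0.14, adjusted p = 0.92)). The overexpression call was lost without Luc Control KO replicate 2 or any 1 of the TRA2B-OE Control KO replicates 1, 2 and 3 (adjusted p = 0.068, 0.05003, 0.099 and 0.083), and the call within TRA2B-OE cells held in each case. Within TRA2B-OE cells 1 member rose and 1 fell, against 6.07% of genes called. The member that rose was SNRPA1, from 106, 114 and 110.3 TPM to 132, 143 and 151 TPM without overlap, a log2 fold change of 0.34 (SE 0.09, adjusted p = 0.041) whose call was lost when any 1 of 5 libraries was left out (adjusted p from 0.066 to 0.14). For the difference of responses 0 members were called by limma, against 0% of all genes, with 0 higher and 2 lower at an unadjusted p under 0.05.

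**Figure D4:**
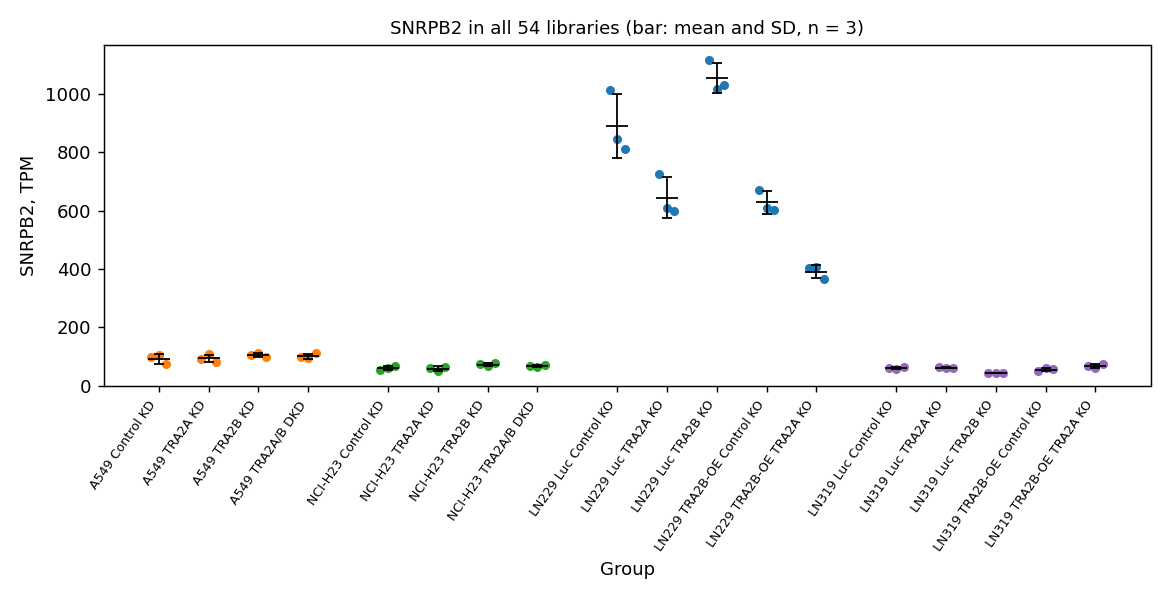
TPM of SNRPB2 (vertical axis) in each of the 54 libraries (points), by group in the 4 lines, with the group mean and SD. In LN229 it lay between 809 and 1012 TPM in Luc controls and between 364 and 407 TPM in TRA2B-OE cells with TRA2A KO, whereas LN319 values did not exceed 74.2 TPM.

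LN319 gave the broadest change of the 8 glioma comparisons with a control. After TRA2B KO, 0 members rose and 31 fell, against 18.6% of all genes called higher and 24% called lower, and the median log2 fold change was −0.31 beside 0.02 over all genes. The share called lower varied with transcript length. It was 17.4% of genes up to 1 kb, 41.9% of those from 1 to 2 kb and 28.0% of those over 2 kb. Of the members in these classes 6 of 7, 6 of 12 and 19 of 31 fell, so the excess was smallest from 1 to 2 kb. The losses covered all 7 Sm proteins, all 3 exon junction proteins, 6 of 10 U2, 5 of 8 tri-snRNP, 5 of 7 NTC, 3 of 5 late, 1 of 3 U1 and 1 of 4 U5 proteins and 0 of 3 factors of the 3′ splice site. U2AF1 by itself was not called, but U2AF1L5 was called lower (log2 fold change −0.99, adjusted p = 0.00055), and the sum of the copies was 238 ± 11.1 TPM in controls and 159.7 ± 2.19 TPM after TRA2B KO (SD, n = 3). With the copies summed 32 members fell. Quantile scaling gave 7 higher and 25 lower, and TPM as deposited 2 higher and 25 lower with the median of all genes at 0.12 on the log2 scale. Mitochondrially encoded transcripts held 18.3% to 20.6% of TPM in the TRA2B KO libraries and 12.1% to 12.8% in the controls. The part of that shift in the result was not tested beyond the scalings given.

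SNRPF, a Sm ring protein, had the largest loss, at 43.8, 39.0 and 46.2 TPM in LN319 controls and 26.5, 23.4 and 25.7 TPM after TRA2B KO, a log2 fold change of −0.87 (SE 0.16, adjusted p = 0.00098). SNRPD1 was at 62.0, 41.4 and 58.9 TPM and 27.8, 37.2 and 33.8 TPM, a log2 fold change of −0.81 (SE 0.23, adjusted p = 0.014). SNRPD3 was at 155, 128 and 158 TPM and 94.8, 88.7 and 96.1 TPM, a log2 fold change of −0.76 (SE 0.18, adjusted p = 0.0039). The TRA2B KO libraries lay below all controls for each of these ring proteins, and the median over the 7 Sm proteins was −0.67. The SNRPD1 call was lost without Luc Control KO replicate 1 or 3 or Luc TRA2B KO replicate 1 (adjusted p = 0.058, 0.053 and 0.058), and the SNRPD2 call without Luc TRA2B KO replicate 2 (adjusted p = 0.05007). In LN229 the same proteins after TRA2B KO were uncalled, for instance SNRPF at 45.6, 56.6 and 50.4 TPM in controls and 46.4, 44.0 and 45.8 TPM after TRA2B KO (adjusted p = 0.29).

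The exon junction genes, uncalled in the lung lines, fell together here. MAGOH was at 150.2, 142 and 158 TPM in LN319 controls and 94.7, 88.8 and 89.6 TPM after TRA2B KO, a log2 fold change of −0.83 (SE 0.10, adjusted p = 6.7e-05). RBM8A, its partner in the complex, was at 277, 274 and 284 TPM and 174, 178 and 175 TPM, a log2 fold change of −0.77 (SE 0.10, adjusted p = 8.8e-05). EIF4A3, the helicase that clamps the complex on RNA, was at 231, 224 and 227 TPM and 135, 161 and 169 TPM, a log2 fold change of −0.67 (SE 0.10, adjusted p = 0.00027). None of the 3 overlapped its controls, and all 3 calls held with each library left out. MAGOHB, the near copy of MAGOH, moved the same way in LN319 (log2 fold change −0.35, adjusted p = 0.049) but was called higher in both double knockdowns (0.78 and 0.59, adjusted p = 0.028 and 0.00041). The MAGOH transcripts share 0.737% of their 31-base words with MAGOHB, and those of EIF4A3 share none with EIF4A1 or EIF4A2.

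**Figure D5:**
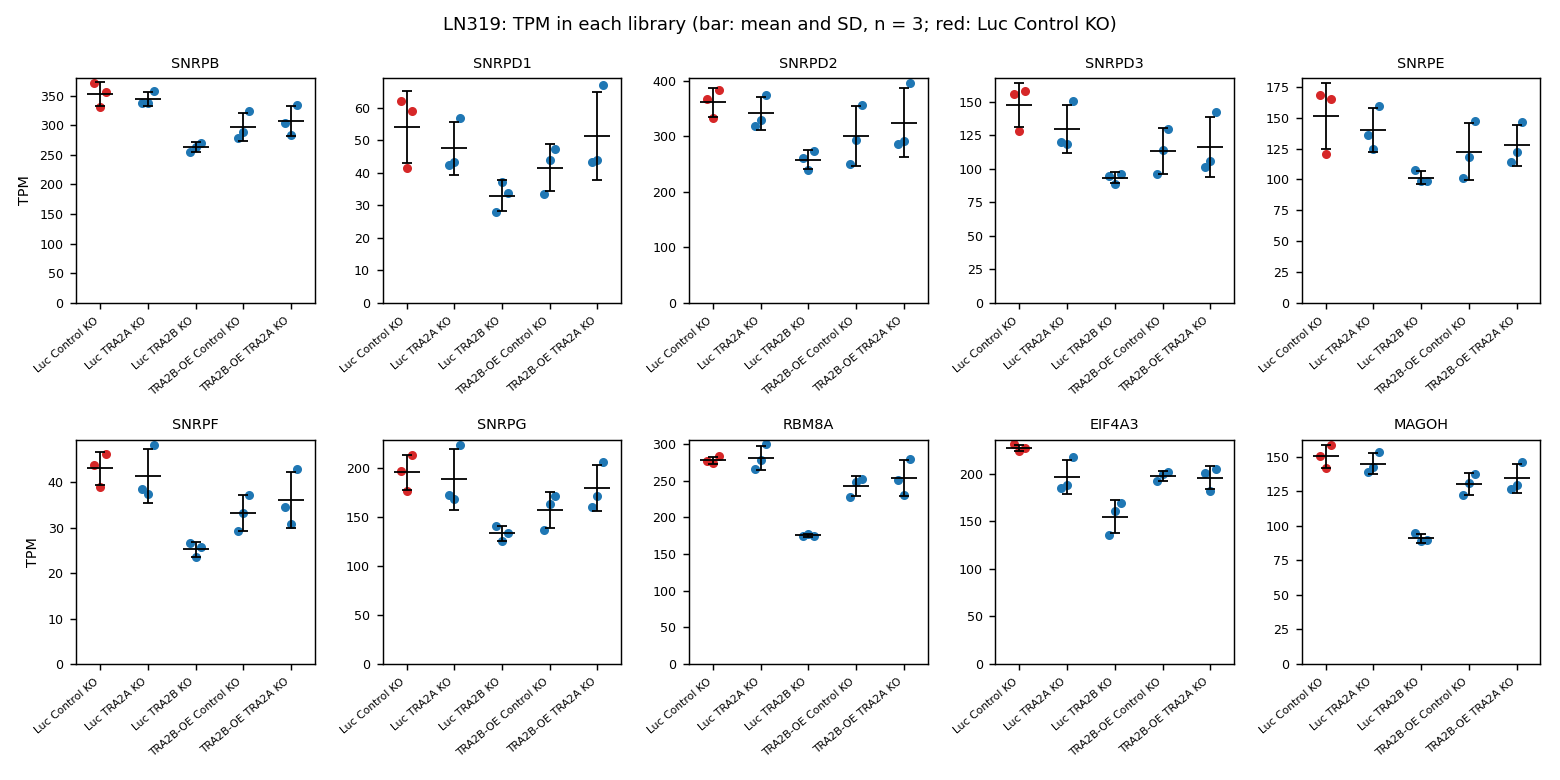
TPM of the 7 Sm and 3 exon junction genes in each LN319 library (points; Luc controls in red) by group, with the group mean and SD. For RBM8A the TRA2B KO libraries lie between 174 and 178 TPM, the Luc controls between 274 and 284 TPM and the TRA2A KO libraries between 267 and 299.6 TPM.

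BUD31 and SLU7, which rose in both lung double knockdowns, fell after LN319 TRA2B KO. BUD31 was at 72.6, 60.0 and 70.3 TPM in LN319 controls and 51.8, 49.4 and 49.2 TPM after TRA2B KO, a log2 fold change of −0.53 (SE 0.10, adjusted p = 0.0013). SLU7 was at 53.1, 48.4 and 45.9 TPM and 43.8, 44.1 and 39.1 TPM, a log2 fold change of −0.32 (SE 0.08, adjusted p = 0.0059), lost without Luc TRA2B KO replicate 3 (adjusted p = 0.052). Both genes were lower in all 3 knockout libraries than in any control. PRPF6, PRPF4, PRPF31, USP39 and DHX16 were the 5 members called lower in both double knockdowns and in LN319 TRA2B KO. Their log2 fold changes in LN319 were −0.35, −0.50, −0.36, −0.26 and −0.31 in that order. The perturbations differ between the lines in agent and time, so these values stand side by side only. Of the other members, 11 were called in LN319 TRA2B KO and in neither double knockdown: SF3A1, SF3B5, SNRPB2, SNRPD1, SNRPD3, CDC5L, RBM22, DHX8, RBM8A, EIF4A3 and MAGOH. The shares of all genes with these patterns of calls were not counted.

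TRA2A KO in LN319 called 0 members higher and 1 lower, against 14.3% of all genes called. The member was SNRNP200, at 141, 133 and 132 TPM in controls and 121, 116 and 113 TPM after TRA2A KO, a log2 fold change of −0.17 (SE 0.04, adjusted p = 0.022). The groups were apart, but the call was lost without Luc Control KO replicate 1 or Luc TRA2A KO replicate 1 or 2 (adjusted p = 0.089, 0.061 and 0.071). To test the difference between the knockouts themselves, TRA2B KO was also set against TRA2A KO, a comparison chosen after the data were seen. Between TRA2B KO and TRA2A KO in LN319, 2 members were higher and 32 lower in TRA2B KO, against 47.2% of all genes called in either direction. The shares of all genes by direction are not given here, so this split and that of LN229 below have no background. MAGOH, at 139, 142 and 153 TPM after TRA2A KO, differed by −0.81 (SE 0.10, adjusted p = 3.1e-05), RBM8A by −0.82 (SE 0.10, adjusted p = 2.5e-05) and SNRPF by −0.85 (SE 0.16, adjusted p = 0.00082). The members higher in TRA2B KO were SNRNP70 (0.18 (SE 0.05, adjusted p = 0.0047)) and SNRNP200 (0.16 (SE 0.04, adjusted p = 0.012)). In LN229 the same comparison gave 2 higher and 13 lower, a total share below the 34.1% of all genes called in either direction, so the members showed no excess of calls. SNRPB2 and SF3B1 were higher, by 0.65 (SE 0.10, adjusted p = 0.00075) and 0.27 (SE 0.06, adjusted p = 0.0055), and PRPF4 was lower, by −0.69 (SE 0.14, adjusted p = 0.0037). On TPM as deposited the splits were 6 higher and 22 lower in LN319 and 4 and 11 in LN229, and with quantile scaling 10 and 22 in LN319 and 4 and 12 in LN229.

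Overexpression of TRA2B in LN319 by itself called 0 of 50 members, against 4.31% of all genes, with 1 higher and 15 lower at an unadjusted p under 0.05 and a median log2 fold change of −0.12. With the trends in length, GC content and gene span removed 3 were called. The exon junction genes were among the lower values, with MAGOH at 122, 131 and 138 TPM in TRA2B-OE controls (−0.29 (SE 0.10, adjusted p = 0.097)) and RBM8A at 228, 249 and 253 TPM (−0.28 (SE 0.10, adjusted p = 0.1)). Both groups lay between the Luc controls and the TRA2B KO libraries without overlap with either. When TRA2A was knocked out in TRA2B-OE cells 2 members rose and 0 fell, against 2.77% of genes. BUD31 was at 63.5, 65.5 and 71.1 TPM in TRA2B-OE controls and 88.4, 88.0 and 93.7 TPM after TRA2A KO, a log2 fold change of 0.49 (SE 0.10, adjusted p = 0.03), and U2AF2 at 442, 416 and 375 TPM and 463, 461 and 432 TPM, a log2 fold change of 0.20 (SE 0.05, adjusted p = 0.048). The BUD31 groups were apart, whereas the lowest U2AF2 knockout library lay below the highest control in TPM. After the scaling the U2AF2 groups were apart as well. Both calls were lost when any 1 of the 6 libraries was left out (adjusted p up to 0.16). For the difference of the TRA2A KO response between TRA2B-OE and Luc cells limma called 0 members, against 0.0207% of genes, with 5 higher and 0 lower at an unadjusted p under 0.05.

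Over the 14 comparisons of a perturbation with its control, which leave out those between the knockouts, 3 members were never called: SF3B1, the branch-point protein of the SF3B complex, PRPF3, the U4/U6 partner of PRPF4, and DHX38, a helicase that remodels the complex between the catalytic steps. SF3B1 ranged from −0.28 to 0.26 on the log2 scale over these comparisons, PRPF3 from −0.15 to 0.27 and DHX38 from −0.18 to 0.18. At the other end, BUD31 was called higher in 3 and lower in 1 comparison, and SNRPB2 and USP39 were each called lower in 4. The comparisons within a line share control libraries, so these counts are not independent.

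A further 92 spliceosome genes outside the 50, all tested in each line, gave the setting. In A549 DKD 11 of 92 rose and 13 fell, where 14.3% and 16.3% of all genes did, so these counts were near the background. In NCI-H23 DKD 16 rose and 33 fell, where 20% and 23.2% of all genes did. In LN319 TRA2B KO 15 rose and 52 fell, where 18.6% and 24% of all genes did. The share of all genes called in both double knockdowns was not counted, so the joint counts that follow have no background. Of the 92, 8 rose in both double knockdowns, among them the NTC-linked SYF2 (log2 fold changes 0.75 and 1.01 in A549 and NCI-H23), UPF3B, which links exon junction complexes to nonsense-mediated decay (1.11 and 0.34), CCDC130 (1.51 and 0.49), MAGOHB (0.78 and 0.59) and PRPF40B (0.53 and 0.59). Another 10 fell in both, among them the tri-snRNP cyclophilin PPIH (−1.06 and −0.53), the minor-spliceosome protein SNRNP25 (−0.74 and −0.78), LUC7L2, a U1-associated factor (−0.69 and −0.75), the export adaptor ALYREF (−0.69 and −0.53) and DDX46, a helicase of U2 addition (−0.66 and −0.56). Of the 10 LSm and U6 genes, which include the ring of U6 snRNA, 1 fell in A549 DKD, 8 in NCI-H23 DKD and 8 in LN319 TRA2B KO, to be read against the same shares of all genes. Of the 20 further NTC and related genes, 4 rose and 0 fell in A549 DKD, 3 rose and 4 fell in NCI-H23 DKD and 2 rose and 15 fell in LN319 TRA2B KO.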

How the data were processed

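Gene values were taken from 4 deposited tables of TPM, 1 for each line, each with 55906 gene names. Per the study's methods, the authors mapped reads of polyadenylated, directional libraries to GRCh38 and estimated transcript levels with kallisto 0.48.0 on Gencode annotation. The submitters' processing notes also name STAR 2.7.3. TPM divides by transcript length and holds no read counts, and the strand setting of the quantification was not given in the sources used here. Of the listed names, 28 had been turned into date forms.

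Within each line a gene was kept where 4 or more libraries reached 1 TPM (16405, 16293, 18490 and 19303 in A549, NCI-H23, LN229 and LN319). TPM were scaled with trimmed means of M values (30% of M and 5% of A trimmed at each end) and tested as log2(TPM + 0.1) in limma 3.58.1 (R 4.3.3) with all libraries of the line in 1 fit and a trended prior. p-values were adjusted by Benjamini-Hochberg over all genes kept. With 3 libraries against 3, an exact permutation test of a single gene cannot go below p = 0.1. The scripts were tested on simulated data. Genes named with every library were those called in the same direction in both double knockdowns (up to 10 each way by mean absolute log2 fold change), up to 5 each way called in 1 line, up to 5 called in each single-paralog or overexpression comparison, and the highest and lowest in controls. The members and lists were chosen with earlier results of these data known. Sequences, spans and start sites are from RefSeq on GRCh38.p14, and 31-base words from Gencode transcripts or, for U2AF1, its gene span. Protein sequences were not used here. Alternatives covered the pseudocount, filter, scaling, samples in the fit, a replicate block, each library left out, an absolute log2 fold change above 1 and, chosen after seeing the data, removal of trends with length, GC content and gene span and the summing of U2AF1 with its copy.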

Additional observations from a re-analysis of the deposited data

Results flagged for a closer look

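In 5 cases every library of a perturbed group lay, after scaling, above all its controls in 1 line and below all its controls in another, and the difference between the lines was not tested. SF3B5, the smallest SF3B protein, moved by 0.405 on the log2 scale after TRA2A KD in A549 and by −0.175 in NCI-H23 (adjusted p = 0.49 and 0.45). DHX8, a helicase that releases spliced mRNA, moved by −0.316 after DKD in A549 and by 0.329 in NCI-H23 (adjusted p = 0.065 and 0.065). DHX38 moved by 0.126 after TRA2A KO in LN229 and by −0.0791 in LN319 (adjusted p = 0.24 and 0.34). SLU7 moved by 0.133 after TRA2B KO in LN229 and by −0.32 in LN319 (adjusted p = 0.41 and 0.0059). SNRPB2 moved by −0.705 after TRA2A KO in TRA2B-OE cells of LN229 and by 0.316 in those of LN319 (adjusted p = 0.0021 and 0.13). Of these 10 changes 2 passed the threshold in limma, and SNRPB2 started from 602 to 671 TPM in LN229 and from 50.5 to 60.3 TPM in LN319.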

How the results depend on the processing

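Counts here are members called, without the share of all genes called under the same setting, and those with a slash are higher and lower. The directions of the called changes held under all alternatives run, with 2 exceptions: U2AF1 in A549 DKD moved to −0.28 (adjusted p = 0.19) once summed with U2AF1L5, and EFTUD2 in LN319 TRA2B KO to 0.0075 (adjusted p = 0.93) with quantile scaling. The cause of the second was not tested. Of the calls, those that held with each library left out and under every setting with the same threshold on the adjusted p alone were 10 of 23 in A549 DKD, 17 of 30 in NCI-H23 DKD and 21 of 31 in LN319 TRA2B KO. For single-paralog loss the calls were too few to say more, and the tables hold no read counts from which a counting error could be given.

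Asking for an absolute log2 fold change above 1, as the study did, left 2 in NCI-H23 DKD (2/0), 2 below additivity in A549, 3 in NCI-H23, and 0 in A549 DKD, NCI-H23 TRA2A KD, LN229 TRA2A KO, LN229 TRA2B-OE, LN229 TRA2A KO in TRA2B-OE cells, LN319 TRA2A KO, LN319 TRA2B KO, LN319 TRA2A KO in TRA2B-OE cells and TRA2B KO against TRA2A KO in both glioma lines. Fitting the compared groups only gave 11 in A549 DKD (4/7), 25 between the LN229 knockouts (2/23), 1 in LN229 TRA2A KO in TRA2B-OE cells, and 0 in NCI-H23 TRA2A KD, LN229 TRA2A KO, LN229 TRA2B-OE, LN319 TRA2A KO and LN319 TRA2A KO in TRA2B-OE cells. With no filter on low values there were 5 for A549 non-additivity, 9 between the LN229 knockouts, 1 in LN229 TRA2A KO in TRA2B-OE cells, and 0 in NCI-H23 TRA2A KD, LN229 TRA2A KO, LN229 TRA2B-OE and LN319 TRA2A KO in TRA2B-OE cells. TPM as deposited gave 6 (4/2) for A549 non-additivity, 13 (2/11) for NCI-H23 non-additivity, 0 in NCI-H23 TRA2A KD, 2 in LN229 TRA2B-OE, 4 in LN319 TRA2A KO, 1 in LN319 TRA2B-OE and 1 in LN319 TRA2A KO in TRA2B-OE cells. Quantile scaling gave 5 (2/3) for A549 non-additivity, 2 in LN229 TRA2B-OE, 4 in LN229 TRA2A KO in TRA2B-OE cells and 1 in the same comparison of LN319. With trends in length, GC content and span removed there were 19 (2/17) for A549 non-additivity, 2 in LN229 TRA2A KO, 2 in LN229 TRA2B-OE, 4 in LN229 TRA2A KO in TRA2B-OE cells and 3 in LN319 TRA2B-OE. Pseudocounts of 0.5 and 1 and a minimum of 5 TPM each left 1 in LN319 TRA2A KO in TRA2B-OE cells.

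The replicate numbers were not taken to pair libraries. The median correlation of same-numbered deviations from the group means was 0.026 for A549, 0.020 for LN229, −0.013 for NCI-H23 and 0.021 for LN319, with extremes of −0.15 and 0.13, −0.085 and 0.21, −0.079 and 0.11, and −0.052 and 0.099 in that order. With the replicate block the counts were 6 (0/6) for A549 non-additivity, 0 in NCI-H23 TRA2A KD, 1 in LN229 TRA2B KO, 2 in LN229 TRA2B-OE, 9 (0/9) in LN319 TRA2B-OE and 1 in LN319 TRA2A KO in TRA2B-OE cells, and no other count moved by over 1.5 times.

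With 1 library left out, counts ran from 0 to 1 in A549 TRA2A KD, 15 to 33 in A549 DKD, 3 to 19 for A549 non-additivity, 26 to 30 in NCI-H23 DKD, 14 to 24 for NCI-H23 non-additivity, 0 to 1 in LN229 TRA2A KO, 0 to 11 in LN229 TRA2B KO, 0 to 1 in LN229 TRA2B-OE, 1 to 2 in LN229 TRA2A KO in TRA2B-OE cells, 10 to 15 between the LN229 knockouts, 0 to 1 in LN319 TRA2A KO, 29 to 34 in LN319 TRA2B KO, 0 to 2 in LN319 TRA2B-OE and 28 to 34 between the LN319 knockouts. They were 0 each time in NCI-H23 TRA2A KD and in LN319 TRA2A KO in TRA2B-OE cells.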
